A study of Rattus norvegicus with 4 samples.

Results

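The SLC25 family comprises nuclear-encoded carrier proteins, most of which sit in the inner mitochondrial membrane and move metabolites between the cytosol and the mitochondrial matrix. The members were all rows of the deposited rat gene table that were protein-coding and had a symbol starting with Slc25a, which gave 40 of 15172 listed genes. Of these, 37 passed the filter on low counts and were tested together with the rest of the table (13953 tested genes). They were measured by RNA sequencing of polyadenylated RNA in INS-1 832/13 cells, a rat insulinoma line that secretes insulin in response to glucose. Cells were transfected for 36 h with a non-targeting siRNA (siScramble, control, replicates 2 and 3) or with a pool of siRNAs against Tbk1 (siTbk1, replicates 2 and 3), a kinase whose role in β-cell replication the study examined. All 4 samples thus came from the same line, underwent transfection, and carried the same replicate numbers in both groups. Nothing says whether replicates were separate cultures, so p-values measure the spread between these samples, which may be technical.

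The carriers share a common fold and act mainly as exchangers, so that a metabolite entering the matrix is matched by another one leaving it or by a proton. In β-cells, the aspartate/glutamate, oxoglutarate, citrate and dicarboxylate carriers link glucose oxidation to cytosolic NADH reoxidation and to the export of carbon from the matrix, and the ADP/ATP and phosphate carriers supply ATP synthase and deliver its product. The glutamate carrier encoded by Slc25a22 has been studied for its link to insulin secretion.

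The results turn on members that moved in opposite directions, and 4 whose adjusted p stayed under 0.05 in every alternative that tested them except glmTreat (a test against a 1.5-fold change) are shown by their promoters, taken from RefSeq on the rat build GRCr8. Each window runs from 250 bases before to 50 bases after the annotated start, is printed 5′ to 3′ on the gene's strand, and has the GC box (GGGCGG, or its reverse complement CCGCCC) in capitals. Slc25a22 and Slc25a39 were lower in siTbk1-treated cells, and Slc25a24 and Slc25a15 were higher.
Slc25a22, chr1:205965828-205966127, minus strand: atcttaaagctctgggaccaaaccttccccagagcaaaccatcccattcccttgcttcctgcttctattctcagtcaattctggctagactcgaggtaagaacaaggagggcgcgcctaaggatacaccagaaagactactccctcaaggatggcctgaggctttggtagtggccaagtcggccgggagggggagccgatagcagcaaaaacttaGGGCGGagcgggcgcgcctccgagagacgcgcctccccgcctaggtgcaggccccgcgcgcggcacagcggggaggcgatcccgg
Slc25a39, chr10:87866924-87867223, minus strand: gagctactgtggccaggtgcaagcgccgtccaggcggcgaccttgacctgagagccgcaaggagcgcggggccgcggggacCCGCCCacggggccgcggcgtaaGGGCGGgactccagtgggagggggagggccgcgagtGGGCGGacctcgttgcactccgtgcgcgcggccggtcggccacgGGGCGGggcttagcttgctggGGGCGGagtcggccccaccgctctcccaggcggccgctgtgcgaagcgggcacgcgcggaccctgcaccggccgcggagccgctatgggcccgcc
Slc25a24, chr2:199449175-199449474, plus strand: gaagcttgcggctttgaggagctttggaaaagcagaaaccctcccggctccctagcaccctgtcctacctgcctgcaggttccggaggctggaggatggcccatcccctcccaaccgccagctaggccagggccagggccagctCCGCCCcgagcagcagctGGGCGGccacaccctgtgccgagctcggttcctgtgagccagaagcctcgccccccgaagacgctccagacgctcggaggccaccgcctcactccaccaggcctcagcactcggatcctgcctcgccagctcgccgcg
Slc25a15, chr16:76336620-76336919, plus strand: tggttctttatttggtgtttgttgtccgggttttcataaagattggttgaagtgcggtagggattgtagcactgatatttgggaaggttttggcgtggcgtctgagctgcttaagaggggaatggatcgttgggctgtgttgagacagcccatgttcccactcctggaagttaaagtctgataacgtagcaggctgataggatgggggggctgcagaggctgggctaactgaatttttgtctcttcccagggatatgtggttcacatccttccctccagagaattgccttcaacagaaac

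Promoter windows, 35 in all, were found for 33 of the 40 members. The GC box, searched on both strands, was present in 25 members (75.8%), against 41.8% of the 21838 promoter windows of the same length. In Slc25a39, it began at positions -169, -146, -110, -66 and -45 from the start. Slc25a22 had it at -35 and Slc25a24 at -106 and -88, and the Slc25a15 window held none. The GC box occurred in 10 of the 10 matched members that were lower at an adjusted p under 0.05. It occurred in 4 of the 6 matched members that were higher. The lower ones include Slc25a51, whose direction is uncertain, as given with the cofactor carriers. The compared windows were those of all protein-coding RefSeq genes, tested here or not. A member was counted once if any of its windows held the letters searched for, whereas the compared shares are over windows. No share was worked out for all lower or all higher genes, so these counts do not tie the GC box to direction. The median GC content of the windows was 60.3% for members and 55.0% for all promoters, and a GC box is itself made of G and C. Among members it was 61.8% for the lower (Slc25a51 included) and 58.3% for the higher ones. The letters CCAAT occurred in 20 members (60.6%, 38.0% of all promoters), the E-box CACGTG in 4 (12.1%, 7.01%), the cyclic AMP response element TGACGTCA in 2 (6.06%, 2.1%) and the NRF1 core GCATGCGC in 1 (3.03%, 3.11%). These letter matches are descriptions of the windows and not binding sites.

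Tbk1 itself checks the labels. It was at 53.7 and 52.5 CPM (counts per 1000000 counts of the TMM-scaled library) in siScramble replicates 2 and 3 and at 11.8 and 13.3 CPM in siTbk1 replicates 2 and 3, a log2 fold change of -2.08 ± 0.076 (SE, edgeR's quasi-likelihood test, Benjamini-Hochberg adjusted p = 3.74e-08). Total counts lay between 38428926 and 47759013 per sample. All 10 β-cell markers examined were listed, at a summed 18910 and 19980 CPM (without TMM scaling, as for the sums that follow) in control and 15730 and 14050 CPM in siTbk1-treated samples. Ins1, one of the insulin genes, carried most of this sum and fell (log2 fold change -0.64, adjusted p = 5.74e-05), whereas Iapp (0.38, adjusted p = 0.000183) and Nkx6-1 (0.23, adjusted p = 0.0168) rose. Markers of other islet cells (2 of 7 listed, nearly all of it Gcg) summed to 1407 and 1341 CPM in control and 803 and 862 CPM in siTbk1-treated samples. Exocrine markers (1 of 7 listed) summed to at most 0.390 CPM, and stromal and immune markers (3 of 9 listed) to between 11.7 and 15.7 CPM. Within the last sum, Kdr fell (-1.57, adjusted p = 4.5e-06) and Pdgfra rose (0.53, adjusted p = 0.00414). Transcripts of the mitochondrial genome took 6.28% and 6.09% of counts in control and 7.92% and 8.38% in siTbk1-treated samples. The part of these shifts in the carrier results was not tested. In RNA from whole cultures, fewer cells of a type and less RNA per cell cannot be told apart.

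As a family, the carriers moved in both directions and mostly by less than 1.5-fold. At an adjusted p under 0.05, 11 of the 37 tested members were lower in siTbk1-treated cells (29.7%) and 7 were higher (18.9%), where 24.8% and 24.4% of all tested genes were lower and higher. With a fold change of at least 1.5 in addition, Slc25a22 and Slc25a51 were called lower (5.41% of members, background 6.18%) and Slc25a43 was called higher (2.70%, background 4.81%). These shares lay near the background of the whole table, and the direction of Slc25a51 turned when a second row of this gene was added to it, as given with the cofactor carriers. The median log2 fold change was -0.092 over the members and 0.0071 over all tested genes, and the member values ranged from -0.73 to 0.83. Both siTbk1 samples lay below both control samples for 19 members (51.4%, 37.9% of all tested genes) and above them for 14 (37.8%, 38.7%), and the groups overlapped for the other 4. The 19 members that did not pass the test had log2 fold changes between -0.44 and 0.22.

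**Figure D1:**
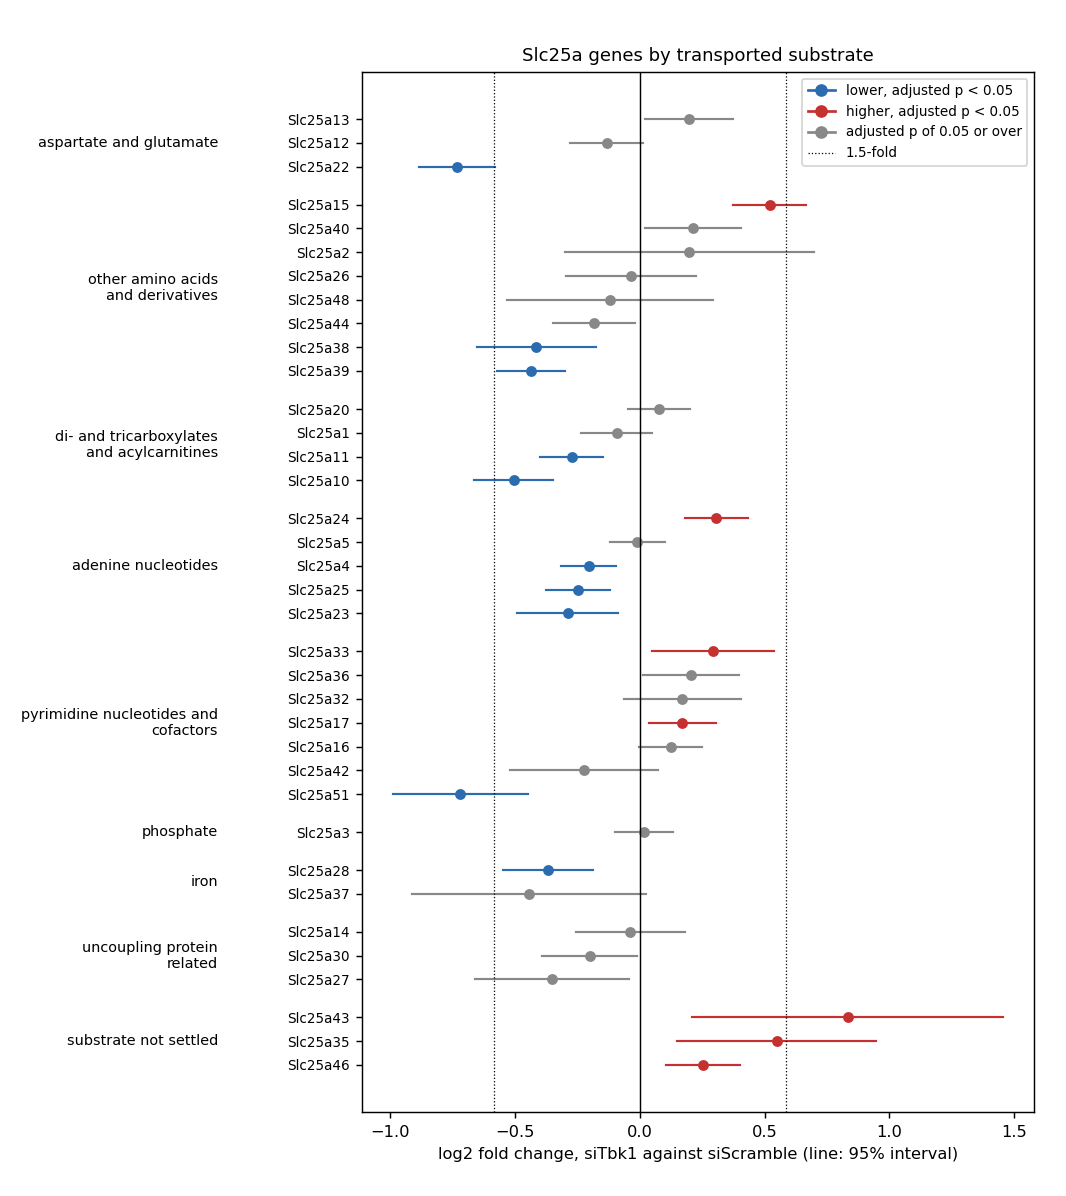
Log2 fold change of 36 of the 37 tested Slc25a genes in siTbk1-treated against siScramble-treated INS-1 832/13 cells (x axis), grouped by transported substrate (y axis). Points are estimates and lines 95% intervals from edgeR's quasi-likelihood test, colour gives the direction where the adjusted p was under 0.05, and dotted lines mark 1.5-fold. Lower and higher members occur side by side in the amino acid, adenine nucleotide and cofactor groups, and the estimates run from -0.73 (Slc25a22) to 0.83 (Slc25a43).

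Among the carriers of aspartate and glutamate, the glutamate carrier fell while the aspartate/glutamate exchangers showed smaller differences of opposite sign. Slc25a22, which brings glutamate into the matrix together with a proton (rn6 chromosome 1, 214410417 to 214414898, minus strand), was at 53.9 and 59.6 CPM in control and 35.3 and 33.0 CPM in siTbk1-treated samples. The groups did not overlap and the level was 1.66-fold lower, a log2 fold change of -0.73 ± 0.070 (95% interval -0.88 to -0.58, adjusted p = 1.08e-05), the lowest estimate among the tested members. Its counts held split reads, seen as fractions of a count shared out among matching places in the genome, and are less certain. Slc25a12 and Slc25a13 encode the calcium-regulated exchangers of the malate-aspartate shuttle, which export aspartate for glutamate. Slc25a12 was at 28.7 and 29.4 CPM in control and 26.8 and 26.2 CPM in siTbk1-treated samples (log2 fold change -0.13 ± 0.067, adjusted p = 0.124). Slc25a13 was at 15.1 and 14.7 CPM in control and 16.7 and 17.6 CPM in siTbk1-treated samples (0.20 ± 0.080, adjusted p = 0.0597). Neither passed the test, although the groups overlapped for neither gene. The log2 ratio of Slc25a12 to Slc25a13 was 0.92 and 0.99 in control and 0.68 and 0.58 in siTbk1-treated samples, 0.33 lower on average and without overlap. With 2 samples in each group, an exact permutation test of such a ratio cannot go below p = 0.333 (two-sided), so the ratios of carriers are given as descriptions. Slc25a18, the other glutamate carrier, had no row under that symbol in the deposited gene table.

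Of 8 tested carriers of other amino acids and their derivatives, 2 were lower and 1 was higher at an adjusted p under 0.05. Among all tested genes, 24.8% were lower and 24.4% higher, so these counts do not set the group apart. Slc25a39, which brings glutathione into mitochondria (chromosome 10, 90351900 to 90356243, minus strand), was at 180.0 and 191 CPM in control and 144 and 130.2 CPM in siTbk1-treated samples (log2 fold change -0.44 ± 0.062, adjusted p = 0.00014). Its relative Slc25a40, with 11.2 and 11.4 CPM in control and 12.8 and 13.5 CPM in siTbk1-treated samples, lay on the other side of zero without passing the test (0.22 ± 0.088, adjusted p = 0.0609). The log2 ratio of the pair, examined after these values were seen, was 0.65 lower in siTbk1-treated samples. Slc25a40 overlaps Rundc3b on the opposite strand by 10114 bases. Rundc3b had a mean of 56.1 CPM over all samples and a log2 fold change of 0.12. Whether its reads entered the Slc25a40 counts was not tested. Slc25a38, a glycine carrier needed for heme synthesis, fell from 9.35 and 9.11 CPM to 7.40 and 6.41 CPM (-0.41 ± 0.11, adjusted p = 0.00785). Without siTbk1 replicate 3, its adjusted p was 0.0618 at a log2 fold change of -0.32.

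Slc25a15, which exchanges ornithine and citrulline in the urea cycle (chromosome 16, 74531564 to 74554530, plus strand), rose from 34.9 and 32.5 CPM in control to 46.8 and 50.1 CPM in siTbk1-treated samples. The log2 fold change was 0.52 ± 0.068 (95% interval 0.37 to 0.67, adjusted p = 7.83e-05), 1.44-fold and just short of the fold limit, and some of its reads were split. Its intronless relative Slc25a2 was at 1.19 and 1.14 CPM in control and 1.30 and 1.38 CPM in siTbk1-treated samples (0.20 ± 0.23, adjusted p = 0.502), and the interval of its change (-0.30 to 0.70) holds that of Slc25a15. The carriers of S-adenosylmethionine (Slc25a26, -0.04, near zero and of either sign when a sample was left out) and of branched-chain amino acids (Slc25a44, -0.18) and Slc25a48 (-0.12) did not pass the test. Slc25a44 passed it without siScramble replicate 2 (-0.25, adjusted p = 0.0187) or siTbk1 replicate 2 (-0.26, adjusted p = 0.0322). Slc25a29, a carrier of basic amino acids, had counts of 10, 8, 11 and 3 in siScramble replicates 2 and 3 and siTbk1 replicates 2 and 3, and was not tested.

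The carriers of di- and tricarboxylates had 2 of 4 tested members lower and none higher (24.8% and 24.4% of all tested genes). Slc25a10, the dicarboxylate carrier that exchanges malate or succinate for phosphate (chromosome 10, 109665682 to 109673144, plus strand), was at 208 and 234 CPM in control and 166 and 145 CPM in siTbk1-treated samples. It was 1.42-fold lower (log2 fold change -0.51 ± 0.072, 95% interval -0.66 to -0.35, adjusted p = 0.000146). It crossed the 1.5-fold limit without siScramble replicate 2 (-0.59) or siTbk1 replicate 2 (-0.62), the control sample with the lower and the siTbk1 sample with the higher level. Slc25a11, the oxoglutarate/malate exchanger of the malate-aspartate shuttle, fell from 76.2 and 80.1 CPM to 65.6 and 63.8 CPM (-0.27 ± 0.058, adjusted p = 0.00213). The citrate carrier Slc25a1 was at 54.2 and 60.4 CPM in control and at 53.7 CPM in both siTbk1-treated samples (-0.09 ± 0.066, adjusted p = 0.27). The carnitine/acylcarnitine carrier Slc25a20, which imports fatty acyl groups for oxidation, lay between 65.0 and 70.5 CPM in all samples (0.08 ± 0.057, adjusted p = 0.292). Slc25a21, a carrier of oxodicarboxylates, had counts of 3, 1, 8 and 3 and was not tested.

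In the adenine nucleotide group, 3 of 5 members fell and 1 rose (24.8% and 24.4% of all tested genes). Slc25a4 and Slc25a5 encode ADP/ATP translocases, which export the ATP made by oxidative phosphorylation. Slc25a4 was at 519.5 and 520.9 CPM in control and 460.2 and 443 CPM in siTbk1-treated samples (log2 fold change -0.20 ± 0.050, adjusted p = 0.0053). Slc25a5 was at 559 and 572 CPM in control and 553 and 571 CPM in siTbk1-treated samples (-0.01 ± 0.050, 95% interval -0.12 to 0.10, adjusted p = 0.89), with overlapping groups. The log2 ratio of Slc25a4 to Slc25a5 was -0.11 and -0.14 in control and -0.27 and -0.36 in siTbk1-treated samples. The ratio was thus 0.19 lower in siTbk1-treated samples, and the Slc25a5 counts held split reads. Slc25a23, Slc25a24 and Slc25a25 encode calcium-activated exchangers of ATP-Mg and phosphate, which set the size of the matrix adenine nucleotide pool. Slc25a24 (chromosome 2, 211930326 to 211967506, plus strand) rose from 57.9 and 55.9 CPM to 70.1 and 70.9 CPM (0.31 ± 0.058, adjusted p = 0.000903). Slc25a25 fell from 82.7 and 88.1 CPM to 72.8 and 71.0 CPM (-0.25 ± 0.059, adjusted p = 0.00405). Slc25a23 fell from 29.4 and 35.0 CPM to 28.1 and 24.5 CPM (-0.29 ± 0.093, adjusted p = 0.0221). The 3 exchangers did not all move in the same direction. The log2 ratios of Slc25a24 to Slc25a23 and to Slc25a25, examined after these values were seen, were 0.60 and 0.56 higher in siTbk1-treated samples. The change of Slc25a23 rested on replicate 3, since it was -0.16 (adjusted p = 0.167) without siScramble replicate 3 and -0.19 (adjusted p = 0.142) without siTbk1 replicate 3.

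**Figure D2:**
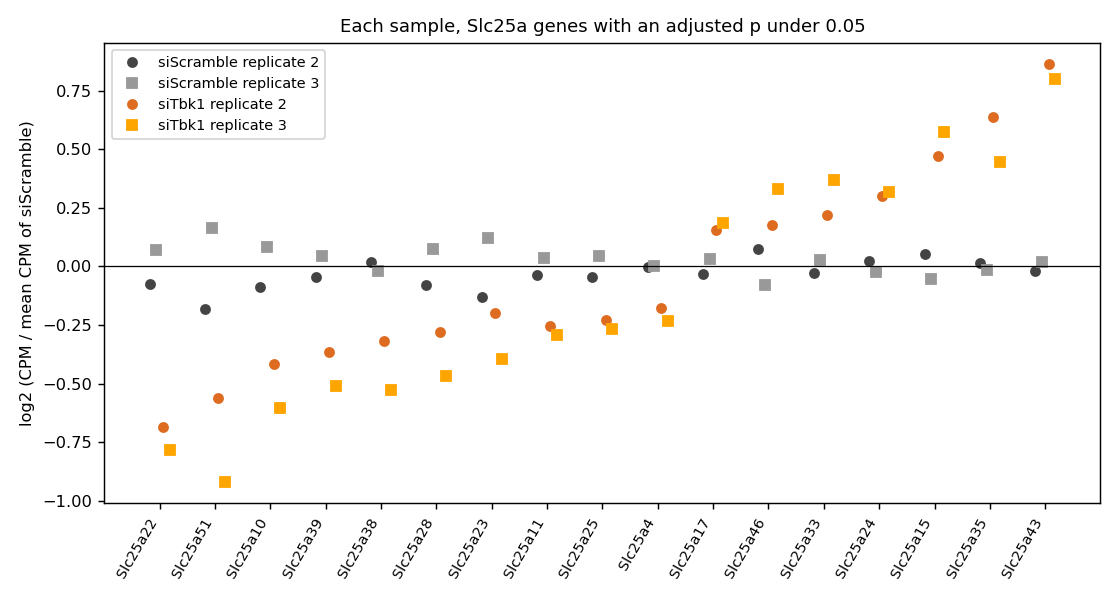
Level of 17 of the 18 Slc25a genes with an adjusted p under 0.05 in each sample, as log2 of CPM over the mean CPM of siScramble (y axis), ordered by fold change (x axis). Circles are replicate 2 and squares replicate 3, grey for siScramble and orange for siTbk1. All 17 genes have the siTbk1 samples on one side of both control samples, which nearly follows from choosing them by a test on these samples. Of all tested genes, 37.9% lie below and 38.7% above both controls in this way. The spread between replicates is widest for Slc25a51.

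The carriers of pyrimidine nucleotides and cofactors had 2 of 8 members lower and 2 higher, near the shares of all tested genes (24.8% and 24.4%). Slc25a51 carries NAD into the matrix, and its row (chromosome 5, 60944563 to 60955944, minus strand) was at 24.4 and 31.0 CPM in control and 18.8 and 14.6 CPM in siTbk1-treated samples. The log2 fold change of that row was -0.72 ± 0.12 (adjusted p = 0.000515). It fell short of 1.5-fold without siScramble replicate 3 (-0.54) or siTbk1 replicate 3 (-0.56). The table holds a second row on the same chromosome and strand, Mcart1 (61120419 to 61130027), which RefSeq gives as a synonym of Slc25a51, and both rows had split reads. Mcart1 was at 171 and 161 CPM in control and 216 and 220.0 CPM in siTbk1-treated samples, a log2 fold change of 0.39 ± 0.054 (adjusted p = 0.00011). With both rows summed, an alternative added after the data were seen, the level was 196 and 192 CPM in control and 235 and 235 CPM in siTbk1-treated samples, a log2 fold change of 0.28 ± 0.050 (adjusted p = 0.000712). The direction of Slc25a51 thus turned with the treatment of these rows, and its call as lower is uncertain. Summing left Slc25a22 as the only member called lower, and 10 members lower and 8 higher at an adjusted p under 0.05.

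The pyrimidine nucleotide carriers Slc25a33 and Slc25a36 had log2 fold changes of 0.29 ± 0.11 (adjusted p = 0.0451) and 0.20 ± 0.088 (adjusted p = 0.0732). Slc25a33 was at 6.37 and 6.64 CPM in control and 7.57 and 8.40 CPM in siTbk1-treated samples, and Slc25a36 at 16.4 and 17.8 CPM and at 18.4 and 21.1 CPM. The log2 ratio between them was 0.09 higher in siTbk1-treated samples. Slc25a36 was at 0.11 (adjusted p = 0.459) without siTbk1 replicate 3, and passed the test without siScramble replicate 3 (adjusted p = 0.0385) or siTbk1 replicate 2 (adjusted p = 0.0276). Slc25a17, a peroxisomal member that carries coenzyme A and related cofactors, had a log2 fold change of 0.17 ± 0.062 (adjusted p = 0.0379). The calls of Slc25a17 and Slc25a33 were near the limit: in the fit blocked by replicate number, the adjusted p-values were 0.0995 and 0.0635, and without siTbk1 replicate 3 they were 0.171 and 0.237. Without siScramble replicate 2 they were 0.18 and 0.151, without siScramble replicate 3 0.0535 and 0.0786, and without siTbk1 replicate 2 0.111 and 0.0415. Slc25a16 lay at 63.6 and 61.8 CPM in control and 67.2 and 69.6 CPM in siTbk1-treated samples (0.12 ± 0.058, adjusted p = 0.0947, and 0.04 after the gene length correction given with the genomic spans). Slc25a32, a carrier of folate (0.17), and Slc25a42, a carrier of coenzyme A (-0.22), did not pass the test. Slc25a32 was 0.07 without siScramble replicate 3, and Slc25a42 was -0.07 without siTbk1 replicate 3 and -0.43 (adjusted p = 0.0318) without siTbk1 replicate 2.

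The phosphate carrier Slc25a3, which supplies ATP synthase with phosphate, showed no detectable difference. It was at 612 and 595 CPM in control and 592 and 629 CPM in siTbk1-treated samples (log2 fold change 0.02 ± 0.053, 95% interval -0.10 to 0.13, adjusted p = 0.822), with overlapping groups, and its counts held split reads.

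Of the iron carriers of the mitoferrin pair, Slc25a28 fell from 30.3 and 33.6 CPM to 26.3 and 23.1 CPM (log2 fold change -0.37 ± 0.082, adjusted p = 0.00289). It lies inside the interval of Entpd7 on the opposite strand, and Entpd7 had a log2 fold change of -0.07. Slc25a37 was at 1.73 and 2.27 CPM in control and 1.51 and 1.40 CPM in siTbk1-treated samples (-0.44 ± 0.22, 95% interval -0.91 to 0.03, adjusted p = 0.108). The log2 ratio of the pair overlapped between the groups, and the low counts of Slc25a37 left its interval wide. Without siScramble replicate 3, the log2 fold change of Slc25a37 was -0.24 (adjusted p = 0.546).

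None of the 3 uncoupling protein relatives passed the test. Slc25a27 was at 4.18 and 4.32 CPM in control and 3.49 and 3.15 CPM in siTbk1-treated samples (log2 fold change -0.35 ± 0.14, adjusted p = 0.0558). Slc25a30 was at 14.2 and 14.8 CPM in control and 13.1 and 12.1 CPM in siTbk1-treated samples (-0.20 ± 0.087, adjusted p = 0.0755). Slc25a14 overlapped between the groups (-0.04 ± 0.10, adjusted p = 0.786), and its sign changed when single samples were left out. Ucp2, an uncoupling protein gene, belongs to the same protein family but falls outside the symbol rule. It was at 501.6 and 546.7 CPM in control and 357.8 and 323.7 CPM in siTbk1-treated samples, a log2 fold change of -0.62 ± 0.063 (adjusted p = 1.62e-05). Ucp2 was the only gene called among the 4 listed carriers under other symbols. Of all tested genes, 4.81% were called higher and 6.18% lower.

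The 3 tested members whose substrate is not settled rose, 2 of them at low counts. Among all tested genes, 24.4% were higher at an adjusted p under 0.05. Slc25a43 (chromosome X, 123350346 to 123384847, plus strand) had 26 and 22 counts in control and 47 and 36 counts in siTbk1-treated samples, that is 0.541 and 0.555 against 0.999 and 0.954 CPM. The log2 fold change was 0.83 ± 0.29 (95% interval 0.21 to 1.46, adjusted p = 0.0299). Its adjusted p was 0.186 in DESeq2 and between 0.0844 and 0.124 with any single sample left out. Slc25a35 rose from 1.75 and 1.72 CPM to 2.70 and 2.36 CPM (0.55 ± 0.18, adjusted p = 0.0255), with an adjusted p of 0.149 in DESeq2. It also missed the threshold without siScramble replicate 2 (0.0655), siScramble replicate 3 (0.0805) or siTbk1 replicate 2 (0.171). Slc25a46, an outer membrane member known for a part in mitochondrial shape, was at 111 and 99.7 CPM in control and 119 and 132 CPM in siTbk1-treated samples (0.25 ± 0.069, adjusted p = 0.00902). Its adjusted p rose to 0.0508 without siScramble replicate 3 and to 0.087 without siTbk1 replicate 3. Slc25a47, with counts of 10, 2, 3 and 2, was not tested.

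**Figure D3:**
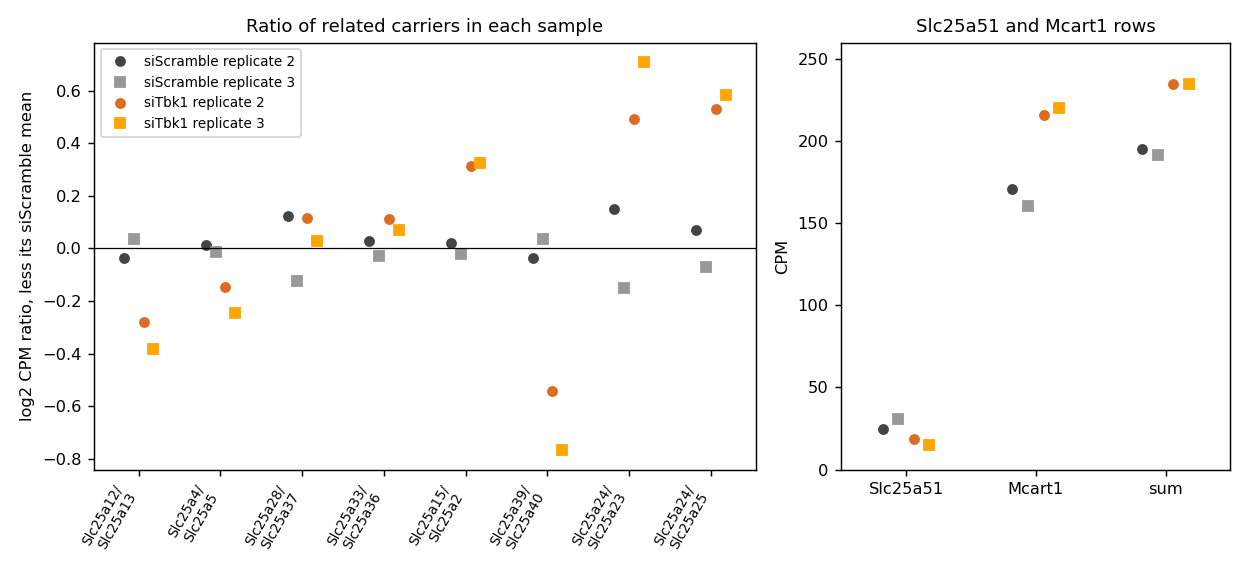
Left, log2 CPM ratio of related carriers in each sample, less its mean in siScramble (y axis), for 8 pairs (x axis), and right, CPM of the rows Slc25a51 and Mcart1 and of their sum (y axis from 0). Circles are replicate 2 and squares replicate 3, grey for siScramble and orange for siTbk1. The siTbk1 samples lie apart from the controls for every pair but Slc25a28/Slc25a37. Slc25a39/Slc25a40, Slc25a24/Slc25a23 and Slc25a24/Slc25a25 were picked after their values were seen, so their separation was known beforehand. How often ratios of unrelated genes separate was not tested. The sum of the Slc25a51 and Mcart1 rows is higher in siTbk1-treated samples while Slc25a51 alone is lower.

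Direction in the family ran with the genomic span of the gene, the distance from its start to its stop including introns. The median span was 10.1 kb for the 11 members that were lower and 28.4 kb for the 7 that were higher, and 13.8 kb and 33.9 kb for all genes lower and higher at the same adjusted p. All 11 lower members were among the 18 that spanned less than the median of all tested genes (20.1 kb), and none was among the 19 that spanned more (Slc25a51, whose direction is uncertain, included). Of the 7 higher members, 1 (Slc25a35) was in the shorter group and 6 in the longer group. Among all tested genes, 30.4% of the shorter and 19.2% of the longer ones were lower, and 17.1% and 31.7% were higher. A correction removed each library's trend along genomic span. It left 6 of the 7 higher members and 9 of the 11 lower members (Slc25a51 included) past the test. Slc25a22 (log2 fold change -0.61), Slc25a10 (-0.41), Slc25a39 (-0.32), Slc25a15 (0.53) and Slc25a24 (0.25) were among those still past the test. Slc25a4 (-0.09, adjusted p = 0.215), Slc25a23 (-0.23, adjusted p = 0.0507) and Slc25a17 (0.10, adjusted p = 0.193) were not past it after the correction, whereas Slc25a12 (-0.24, adjusted p = 0.0119) and Slc25a27 (-0.36, adjusted p = 0.0469) were. Among other members given here, the correction shrank Slc25a13 to 0.07, Slc25a40 to 0.10, Slc25a16 to 0.04, Slc25a44 to -0.12 and Slc25a11 to -0.16, raised Slc25a2 to 0.30, and moved Slc25a1 across zero to 0.02. Slc25a11 (adjusted p = 0.111) and Slc25a25 (adjusted p = 0.0903) were not past the test when the corrected fit also held the replicate block. Whether the relation comes from the cells or from the libraries was not tested.

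**Figure D4:**
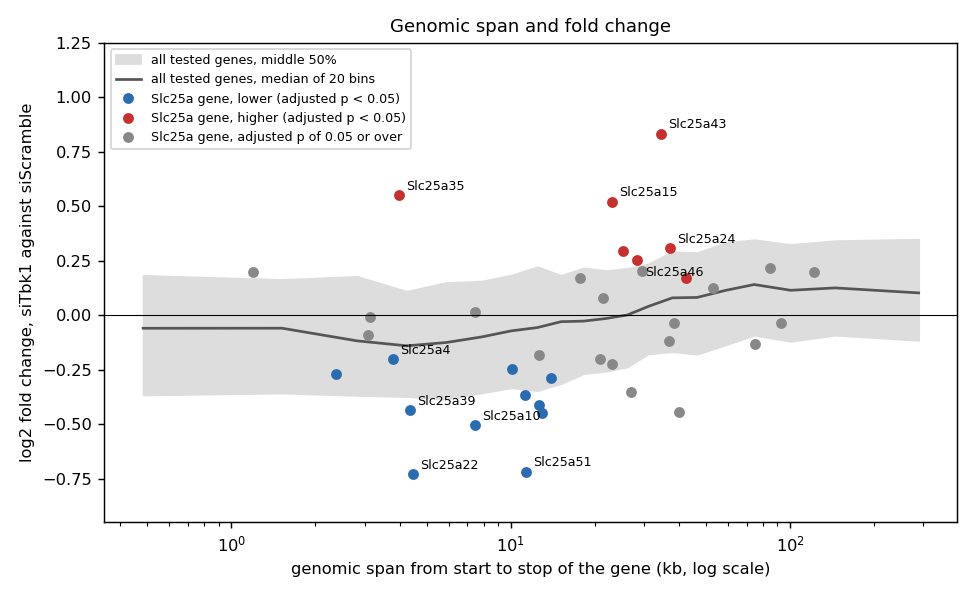
Genomic span (x axis, kb, log scale) and log2 fold change in siTbk1-treated against siScramble-treated cells (y axis) of the tested Slc25a genes, over the median and the middle 50% of all tested genes in 20 bins of span. All 11 lower members (blue, the uncertain Slc25a51 included) lie at spans under 20.1 kb, and 6 of the 7 higher members (red) lie above it.

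The enzymes and transporters that work beside the carriers changed about as often as the tested genes in general, of which 24.4% were higher and 24.8% lower at an adjusted p under 0.05. Of 20 tested enzymes of the shuttles and of carrier-linked steps, 5 were higher and 5 lower at an adjusted p under 0.05 and none was called at 1.5-fold. Acly, the ATP citrate lyase gene, whose enzyme cleaves exported citrate, had a log2 fold change of 0.02 ± 0.054. Of 19 tested mitochondrial transporters outside the family, 6 were higher and 4 lower, again with none called. Over all tested genes, 4.81% were called higher and 6.18% lower. Vdac2, an outer membrane channel gene, had a log2 fold change of 0.18 ± 0.056 (adjusted p = 0.0183). Their median log2 fold changes were -0.02 and -0.05, beside -0.09 for the Slc25a members.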

How the data were processed

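RNA from INS-1 832/13 cells was sequenced from 2 siScramble and 2 siTbk1 samples with a stranded library kit. Per the submitters' processing notes, STAR 2.6.1d, Partek and the build rn6 were used, and whether counting used the strand is not given in the sources used here. The authors deposited estimated counts per gene, not scaled between samples, and 25.8% of the listed genes had split reads (in at least 1 sample, a count further than 0.01 from the nearest whole number). Here the counts were rounded, genes were filtered with filterByExpr (minimum count 10), library sizes were scaled with TMM (factors 0.982 to 1.02), and siTbk1 was tested against siScramble in edgeR 4.0.16 (quasi-likelihood fit, R 4.3.3, treatment alone in the model), with p-values adjusted over all 13953 tested genes by Benjamini-Hochberg. A call required both an adjusted p under 0.05 and a 1.5-fold difference or more. At these depths 3 counts correspond to 0.0628 to 0.0781 CPM, and intervals on 2 samples per group are limited by that number.

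Alternatives were a replicate block, a crossed pairing, DESeq2 1.42.0, limma-voom (limma 3.58.1), other scalings and filters, glmTreat, a gene length correction (loess, span 0.5), leaving out genes with split reads, summing the Slc25a51 and Mcart1 rows, and leaving out each sample. The members, substrate groups and lists were chosen with earlier results of these data known, and the substrate groups follow textbook assignments. Named members are those called, those the study's text names, those with the highest mean CPM and the largest fold change of each substrate group and a set of related pairs. Slc25a11, Slc25a17, Slc25a23, Slc25a25, Slc25a35, Slc25a38, Slc25a40, Mcart1 and other members given were named after their values were seen. Values of 1 tested member are not reported here, and counts include it. Transcript lengths were not used here, so CPM served only to pick named genes and gives no order of transcript levels, and ratios of carriers are compared between groups of samples only. Figures were drawn with matplotlib 3.10.9.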

Additional observations from a re-analysis of the deposited data

How the results depend on the processing

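Of the 18 members with an adjusted p under 0.05, 10 held in each of the 12 alternatives with all 4 samples in which they were tested (glmTreat and the summed rows aside), and 8 of these also with each sample left out, in which the lone sample of a group is assumed to vary like the others. None of the 18 changed sign, except Slc25a51, which was 0.278 with its row and Mcart1 summed. The 2 members called lower became 1 with these rows summed, 0 without genes with split reads (which leaves out Slc25a22 and Slc25a51) and 0 with glmTreat against 1.5-fold, which called 163 genes higher and 101 lower over the whole table. The 1 member called higher became 0 in DESeq2 and glmTreat and 2 with the gene length correction, with or without the replicate block, as Slc25a35 was added. The number higher at an adjusted p under 0.05 fell from 7 to 3 in DESeq2. With each sample left out, 0 to 1 members were called higher, 1 to 3 lower, 3 to 5 were higher and 9 to 13 lower at an adjusted p under 0.05, and the median lay between -0.117 and -0.0916. The members' median of -0.092 was -0.114 in DESeq2, -0.140 with library size alone, -0.114 without a filter, -0.118 without genes with split reads and -0.0371 with the rows summed. Genes near zero changed sign: Slc25a3 was -0.0314 with library size alone and lay between -0.0286 and 0.0482 with each sample left out (-0.00533 without siScramble replicate 3), and Slc25a5 was 0.105 with the gene length correction, 0.105 with that correction and the block, and lay between -0.0313 and 0.00586 with each sample left out (0.000225 without siTbk1 replicate 2). Slc25a1 was 0.0225 with the gene length correction and 0.0235 with the block added, Slc25a14 was 0.035 without siScramble replicate 2 and 0.0127 without siTbk1 replicate 2, and Slc25a26 was 0.0361 without siTbk1 replicate 2. The cause of these differences was not tested.

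The replicate numbers were not shown to pair the samples: deviations of same-numbered samples correlated at 0.0041 (Pearson, over all tested genes) and at -0.386 over the 7945 genes whose mean log2 CPM was 4 or more. With the replicate block, 1 member was called higher and 2 lower, and 5 were higher and 11 lower at an adjusted p under 0.05. With a crossed pairing, added after the data were seen, 1 was called higher and 2 lower, and 10 were higher and 14 lower at an adjusted p under 0.05.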

Other observations

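The table also listed Slc25a rows of another biotype, which the rule left out. Slc25a6, annotated as a processed pseudogene with split reads, was at 12.8 and 13.0 CPM in control and 10.4 and 12.4 CPM in siTbk1-treated samples (log2 fold change -0.19 ± 0.10, adjusted p = 0.149). Slc25a52, annotated as a transcribed processed pseudogene, was at 0.25 and 0.404 CPM in control and 0.106 and 0.265 CPM in siTbk1-treated samples. Neither passed the test.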
